A study of Mus musculus with 3 samples.

Results

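Phosphatidic acid is the branch point of glycerolipid synthesis and a second messenger in stimulated T cells. The acylglycerolphosphate acyltransferases of the Agpat family make it by adding an acyl chain to lysophosphatidic acid, and the diacylglycerol kinases of the Dgk family make it by phosphorylating diacylglycerol. Lipins run the opposite reaction and remove the phosphate to give diacylglycerol. In T cells, diacylglycerol recruits Ras activators and protein kinase C after receptor engagement, and the alpha and zeta kinases, encoded by Dgka and Dgkz, are known for ending that signal. The transcripts described here are those of Agpat1, Agpat2, Agpat3, Agpat4, Agpat5, Dgka, Dgkz and Lpin1. They were chosen by gene symbol, with earlier results of these data known. They are 8 of 23282 deposited gene rows, and all 8 were among the 12770 rows with enough reads to test.

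CD4 T cells, the helper T cells of the adaptive immune system, of young adult female C57BL/6 mice, taken from spleen and lymph node, were isolated and stimulated through CD3 and CD28 for 72 h. All cells received this stimulation. They were cultured in complete medium (CM, RPMI-1640 with 10% serum), in medium prepared from amino acid-free RPMI and dialyzed serum (DM), or in DM to which 30 µM methionine was added (DM+Met), and the comparison asked how nutrient supply, and methionine in particular, changed transcript levels. The paper reports that DM itself still contained methionine, so DM+Met against DM compares more with less methionine, not presence with absence. The labels hold 3 samples with 2 numbered files each, and the study describes independent biological samples, so each medium had 2 libraries. The labels do not say how many animals gave each culture, and the p-values measure only the spread between these libraries, which may be technical. RNA was read from transcript 3′ ends, so a transcript gives about the same number of reads whatever its length, and levels of different genes were compared without a length term. Levels are TMM-scaled CPM, read counts relative to a scaled library size, and the tested quantity was log2(CPM + 1).

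The 6 libraries held 8504742 to 12377285 reads, with 12636 to 14396 genes read. The ribosomal RNA precursor Rn45s took 31.0 to 38.3% of reads in CM and DM and 15.5 and 20.1% with DM+Met. The DM libraries stood no closer to each other across tested genes (Pearson's r of 0.919) than to the DM+Met libraries, to which DM library 1 was at 0.925 and 0.921 and DM library 2 at 0.947 and 0.940, so values are also given without each DM library where they depend on it. The 8 CD4 T cell markers were read in every library and summed to 1463 to 1856 CPM, with Cd4 itself at 1584 to 3312 reads. Summed CD8 T and NK cell markers were 73.5 and 82.4 CPM in CM and 35.9 to 49.8 CPM in the other libraries, and myeloid markers were 33.8 and 37.9 CPM in CM and 45.6 to 72.5 CPM in the others. B cell markers summed to 54.9 to 88.1 CPM, with Pax5 at 0 reads throughout and Ncr1 of the NK list below the filter on low values. In DM against CM, 2 of the 8 CD4 T cell markers were called higher and 2 lower, where 16.9% of all tested rows were called. Of 5 tested CD8 and NK markers, only Cd8a was called, and it fell by 1.72 (adjusted p = 0.0323). Klrb1c of that list went the other way, from 0 reads in CM to 17 to 45 elsewhere, and it passed the filter on low values only through the media where it was high. Of 8 myeloid markers, only Lyz2 was called, and it rose by 2.13 (adjusted p = 0.0355), while Fcer1g was at −0.24. Lyz2 had 3 and 15 reads in CM and passed the filter on low values only through the media where it was high. None of the 5 tested B cell markers was called. The summed CD8 and myeloid signals moved with the medium, and their part in the results below was not tested.

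In the annotation of mouse build GRCm38, which is mm10, Agpat1 and Agpat4 lie on chromosome 17 (chr17:34604262-34613449 and chr17:12118704-12219645, both on the plus strand). Agpat3 and Dgka lie on the minus strand of chromosome 10 (chr10:78269178-78352489 and chr10:128720134-128744855), and Agpat2 and Dgkz on the minus strand of chromosome 2 (chr2:26593057-26604417 and chr2:91932824-91975864). Agpat5 lies at chr8:18846277-18891361 on the plus strand and Lpin1 at chr12:16535669-16610966 on the minus strand. RefSeq promoters of GRCm38.p6 were matched for 7 of the 8 genes. A RefSeq start can lie within the gene span given above, and the windows of Agpat4 and Agpat3 lie inside those spans. The 250 bases before the RefSeq transcription start are shown for Agpat4 and Lpin1, the transcripts that fell most, and for Agpat3, the acyltransferase that rose. They lie at chr17:12119034-12119283 (plus strand), chr12:16610967-16611216 (minus strand) and chr10:78351701-78351950 (minus strand), each written 5′ to 3′ with the start site after the last base, and capitals mark CCAAT or its reverse complement.
Agpat4 promoter: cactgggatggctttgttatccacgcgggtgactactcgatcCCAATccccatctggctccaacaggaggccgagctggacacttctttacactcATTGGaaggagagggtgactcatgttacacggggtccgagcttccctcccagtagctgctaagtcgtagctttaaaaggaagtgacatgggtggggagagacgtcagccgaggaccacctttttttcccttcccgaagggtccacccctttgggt
Lpin1 promoter: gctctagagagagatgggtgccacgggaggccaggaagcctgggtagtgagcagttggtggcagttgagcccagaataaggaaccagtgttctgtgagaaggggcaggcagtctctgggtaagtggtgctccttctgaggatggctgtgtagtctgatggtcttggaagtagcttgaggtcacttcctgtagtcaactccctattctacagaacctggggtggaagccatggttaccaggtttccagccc
Agpat3 promoter: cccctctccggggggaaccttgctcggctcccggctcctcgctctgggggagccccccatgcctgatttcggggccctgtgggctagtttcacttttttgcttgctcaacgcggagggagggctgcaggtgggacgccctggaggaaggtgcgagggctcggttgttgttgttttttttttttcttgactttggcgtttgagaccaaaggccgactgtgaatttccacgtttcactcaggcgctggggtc
Both strands were searched for TCACNCCAC (a sterol regulatory element, in 1.05% of 32851 RefSeq promoters of this length), CACGTG (an E-box, 6.02%), CCAAT (33.8%), GGGCGG (a GC box, 32.7%) and GTAAACA (a forkhead motif, 3.17%). The Agpat4 promoter held CCAAT at 208 and 155 bases before the start, and the Agpat3 and Lpin1 windows held none of the 5 motifs. The Agpat3, Agpat4 and Lpin1 windows contained 14, 10 and 1 CG pairs. A match describes letters in these windows and was not related to the change of the transcript.

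Relative to CM, Agpat4, Agpat5 and Lpin1 fell in DM and Agpat3 rose. In limma with Benjamini-Hochberg adjustment over all tested rows, 4 of the 8 genes (50%) passed an adjusted p of 0.05, against 16.9% of all rows tested. Of these, 3 were lower and 1 was higher, beside 9.07% and 7.8% of all rows. Against CM, DM+Met gave 5 of the 8 (62.5%, against 15.3% of all rows), which were the same 4 genes in the same directions and Dgka, which was higher. Here 3 were lower and 2 higher, beside 8.36% and 6.92% of all rows. The libraries did not overlap for 5 of the 8 genes between DM and CM and for 7 of the 8 between DM+Met and CM, beside 54.1% and 60.9% of all rows. These comparisons share the CM libraries. The 8 genes were chosen with earlier results of these data known, and the study had itself reported reduced Agpat4 in DM. The shares of called genes are therefore a description and do not test an enrichment. Without the intensity trend of limma, the calls of Agpat3 in both media, Agpat5 in DM and Dgka in DM+Met were lost, and with only the compared media in the fit those of Agpat3 and Agpat5 in DM and of Agpat4 in DM+Met were lost. A fit without a library has 2 residual degrees of freedom in place of 3. Between DM+Met and DM, 0 of the 8 passed, against 0.0548% of all rows. The median log2 fold change of the 8 genes was −0.05 with DM and 0.09 in DM+Met against CM, beside 0.07 and 0.06 over all tested rows, with rises and falls on either side. Since RNA was taken from whole cultures, a lower share of cells that express a gene and less RNA per cell cannot be told apart.

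**Figure D1:**
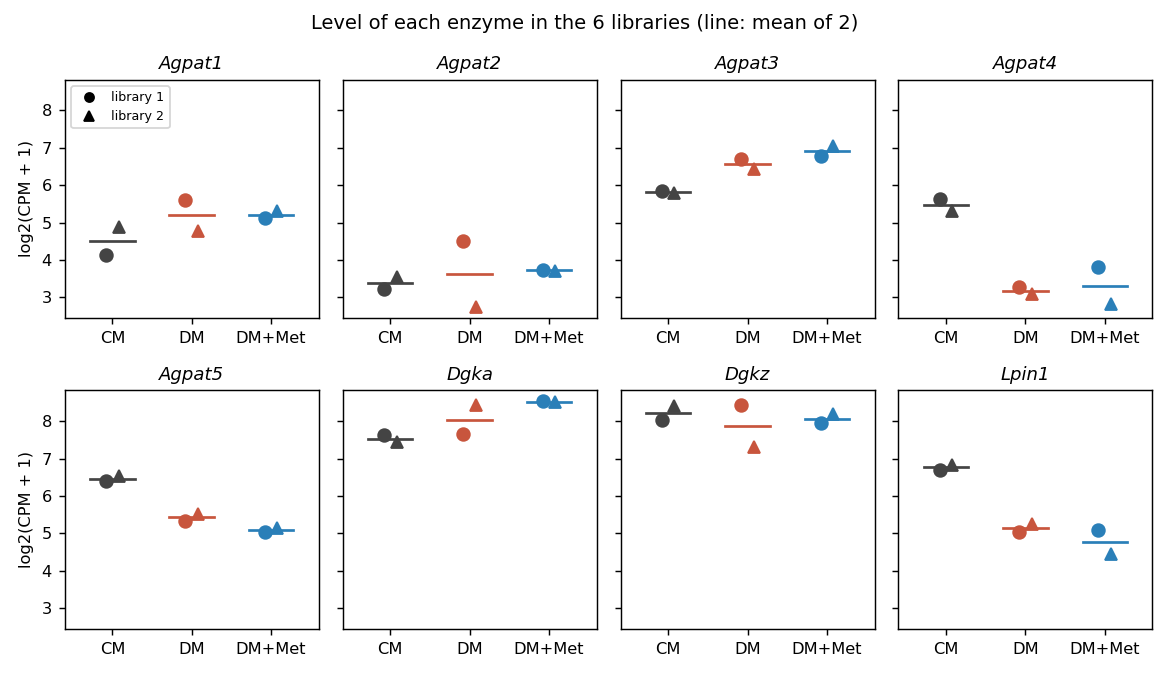
Level of each of the 8 enzymes, as log2(CPM + 1), in CM (grey), DM (red) and DM+Met (blue), with library 1 as a circle, library 2 as a triangle and the mean of 2 libraries as a line. Agpat4, Agpat5 and Lpin1 sit higher in both CM libraries than in any other library and Agpat3 lower, while the 2 DM libraries of Dgka and Dgkz lie far apart.

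Agpat4, one of the lysophosphatidic acid acyltransferases, showed the greatest change of the 8. It was read at 48.3 and 38.4 CPM in CM (424 and 300 reads), 8.67 and 7.50 CPM with DM (85 reads in each library), and 13.1 and 6.05 CPM with DM+Met (156 and 72 reads). Both CM libraries lay above all 4 others, and the DM+Met libraries lay on either side of those in DM. Agpat4 fell by 2.28 on the log2 scale in DM (SE 0.437, 95% interval −3.26 to −1.31, adjusted p = 0.00779, limma) and fell by 2.15 with DM+Met (SE 0.437, adjusted p = 0.00988), which is 0.206 and 0.226 of the CM level on that scale. Leaving out CM library 1, CM library 2, DM library 1 or DM library 2 gave −2.12, −2.44, −2.37 and −2.19 in DM, with adjusted p of 0.0818, 0.0528, 0.0752 and 0.0803. In DM+Met the call was lost without any of the 6 libraries, at an adjusted p of 0.0539 to 0.150, the last without DM+Met library 2 (−1.65).

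Agpat5, an acyltransferase of the same family, also fell. Its levels were 82.8 and 90.9 CPM in CM (727 and 710 reads), 39.6 and 45.1 CPM with DM (388 and 511 reads), and 31.8 and 34.2 CPM with DM+Met (380 and 407 reads). On the TMM scale the 3 media did not overlap, with CM highest and DM+Met lowest. Between DM and DM+Met, 41% of all tested rows did not overlap, and Agpat5 differed by 0.01 under scaling by library totals. Agpat5 fell by 1.02 with DM (SE 0.224, 95% interval −1.52 to −0.52, adjusted p = 0.0144) and fell by 1.37 with DM+Met (SE 0.224, adjusted p = 0.00351). The call in DM held without DM library 2 (adjusted p = 0.0437) and was lost without CM library 1, CM library 2, DM library 1, DM+Met library 1 or DM+Met library 2, at 0.0683, 0.0784, 0.0576, 0.0592 and 0.0606. The call in DM+Met was lost without DM+Met library 1 or 2 (adjusted p = 0.0833 and 0.0703).

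Agpat3, by contrast, rose. It was read at 56.1 and 54.7 CPM in CM (493 and 427 reads), 102 and 85.7 CPM with DM (1002 and 971 reads), and 108 and 132 CPM with DM+Met (1290 and 1567 reads). Again the 3 media did not overlap on the TMM scale, in the reverse order of Agpat5, and the difference between DM+Met and DM was not called (adjusted p = 0.631, limma). Agpat3 rose by 0.75 on the log2 scale in DM (SE 0.2003, 95% interval 0.30 to 1.19, adjusted p = 0.0313) and by 1.09 with DM+Met (SE 0.2003, adjusted p = 0.00605), 1.68-fold and 2.13-fold. The call in DM was the least stable of the 4, since it was lost without any of the 6 libraries (adjusted p = 0.0599 to 0.115, fold change 0.62 to 0.87) and under limma-voom (adjusted p = 0.0526). The call in DM+Met was lost without CM library 1, CM library 2, DM+Met library 1 or DM+Met library 2, at 0.0555, 0.0529, 0.0719 and 0.137.

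Agpat1 and Agpat2, acyltransferases of the endoplasmic reticulum of which Agpat2 is known from inherited loss of fat tissue, passed the test in no comparison. Agpat1 was read at 16.6 and 28.7 CPM in CM, 47.4 and 26.6 CPM with DM, and 33.8 and 38.4 CPM with DM+Met. DM library 2 lay within the CM range, and its fold change in DM was 0.68 (95% interval −0.14 to 1.49, adjusted p = 0.233). Agpat2 was the least abundant acyltransferase in CM, at 8.31 and 10.8 CPM (73 and 84 reads). It was read at 21.9 and 5.65 CPM with DM and 12.4 and 12.0 CPM with DM+Met. Its change in DM was 0.24 (95% interval −1.06 to 1.54, adjusted p = 0.819), an interval that admits a change of either direction, and it was −0.65 without DM library 1.

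The summed level of the 5 acyltransferase transcripts varied little beside the changes of its members. It was 212 and 223 CPM in CM, 220 and 171 CPM with DM, and 199 and 222 CPM with DM+Met, and the media overlapped. Its composition differed between CM and the other media. Of the reads of the 5 genes, Agpat4 gave 22.8% (95% exact Clopper-Pearson interval 20.9 to 24.7%) and 17.2% (15.4 to 19.0%) in CM, 3.94% (3.16 to 4.85%) and 4.40% (3.53 to 5.41%) in DM, and 6.56% (5.60 to 7.63%) and 2.72% (2.14 to 3.41%) in DM+Met. The intervals cover counting error only, and the libraries of a medium lay further apart than these in CM and DM+Met. Agpat5 made up 39.9% ± 1.18 (SD, n = 2) in CM, 22.2% ± 5.97 with DM and 15.7% ± 0.428 with DM+Met, while Agpat3 made up 25.5% ± 1.41, 48.4% ± 2.66 and 56.7% ± 3.50. The leading acyltransferase transcript was therefore Agpat5 in both CM libraries and Agpat3 in the other 4. A ratio within a library does not depend on scaling. There were 1.16 and 1.42 Agpat3 reads per Agpat4 read in CM, 11.8 and 11.4 with DM, and 8.27 and 21.8 with DM+Met. With 2 libraries per medium, these shares were not tested.

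**Figure D2:**
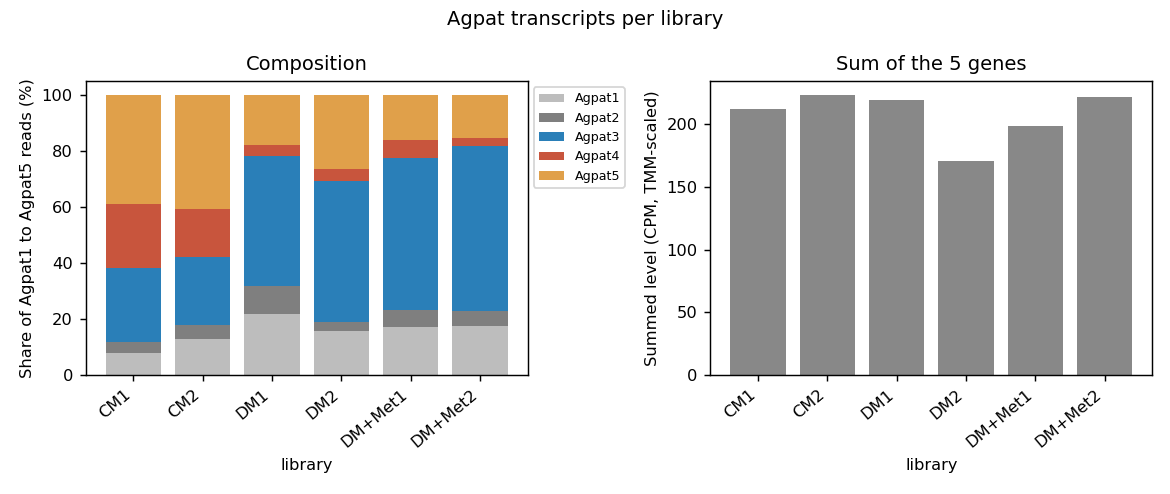
Left, share (%) of Agpat1 to Agpat5 reads given by each gene in the 6 libraries. Right, summed level of the 5 genes in CPM, on an axis from 0. Agpat3 takes 24.5 to 26.5% in CM and 46.5 to 59.2% elsewhere, while the sums range from 171 to 223 CPM.

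Dgkz and Dgka were the most abundant of the 8 transcripts in every medium. Dgka was read at 196 and 174 CPM in CM (1719 and 1357 reads), 200 and 345 CPM with DM (1961 and 3911 reads), and 369 and 362 CPM with DM+Met (4408 and 4314 reads). DM library 1 lay just above CM and DM library 2 just below DM+Met, so that no media overlapped although the DM libraries differed more than CM and DM library 1 did. The change in DM was 0.51 (SE 0.229, 95% interval −0.00266 to 1.02, adjusted p = 0.155), and it was 0.90 without DM library 1 (adjusted p = 0.0429) and 0.12 without DM library 2 (adjusted p = 0.548). Relative to CM, Dgka in DM+Met rose by 0.98 (SE 0.229, 95% interval 0.47 to 1.49, adjusted p = 0.0182), 1.98-fold. This call was lost without CM library 1, CM library 2, DM+Met library 1 or DM+Met library 2 (adjusted p = 0.112, 0.141, 0.201 and 0.192), with no filter on low values (0.0680) and with no intensity trend (0.136). Reads of Dgka may include those of an overlapping gene, Pmel, described further on.

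Dgkz did not pass in any comparison. Its levels were 262 and 336 CPM in CM, 346 and 159 CPM with DM, and 246 and 291 CPM with DM+Met. The DM libraries were the highest and the lowest of all 6, in the opposite order to Dgka. The change was −0.34 with DM (95% interval −1.01 to 0.34, adjusted p = 0.486) and −0.15 with DM+Met (95% interval −0.83 to 0.53, adjusted p = 0.787). Without DM library 1 the change in DM was −0.90, and without DM library 2 it was 0.22. Dgkz reads outnumbered Dgka reads 1.34 and 1.93 to 1 in CM and 1.73 to 1 in DM library 1, whereas the ratio was 0.460 in DM library 2 and 0.668 and 0.803 with DM+Met. Together the 10 diacylglycerol kinase genes summed to 607 and 618 CPM in CM, 734 and 648 CPM with DM, and 738 and 785 CPM with DM+Met, and Dgka gave 30.2% ± 2.93 (SD, n = 2) of these reads in CM, 40.3% ± 18.4 with DM and 48.1% ± 2.73 with DM+Met.

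Lpin1, the phosphatidic acid phosphatase of the lipin family, fell in both dialyzed media. It was read at 103 and 112 CPM in CM (904 and 878 reads), 31.6 and 36.9 CPM with DM (310 and 418 reads), and 32.9 and 20.7 CPM with DM+Met (393 and 247 reads). Both CM libraries lay above all 4 others, which overlapped between DM and DM+Met. Lpin1 fell by 1.63 on the log2 scale in DM (SE 0.272, 95% interval −2.23 to −1.02, adjusted p = 0.00428) and fell by 2.00 with DM+Met (SE 0.272, 95% interval −2.61 to −1.39, adjusted p = 0.00130). With methionine the call held in all 17 alternative analyses. The call in DM was lost without CM library 1, CM library 2, DM library 1 or DM library 2, at an adjusted p of 0.0539, 0.0536, 0.0698 and 0.0547. Lpin2, its relative, was not called, at −0.33 (adjusted p = 0.518) and −0.42 (adjusted p = 0.426). Lpin2 reads per Lpin1 read were 0.278 and 0.355 in CM, 0.681 and 0.892 with DM, and 0.712 and 1.28 with DM+Met. The summed lipin level was 132 and 154 CPM in CM, 54.6 and 69.8 CPM with DM, and 56.4 and 47.4 CPM with DM+Met.

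**Figure D3:**
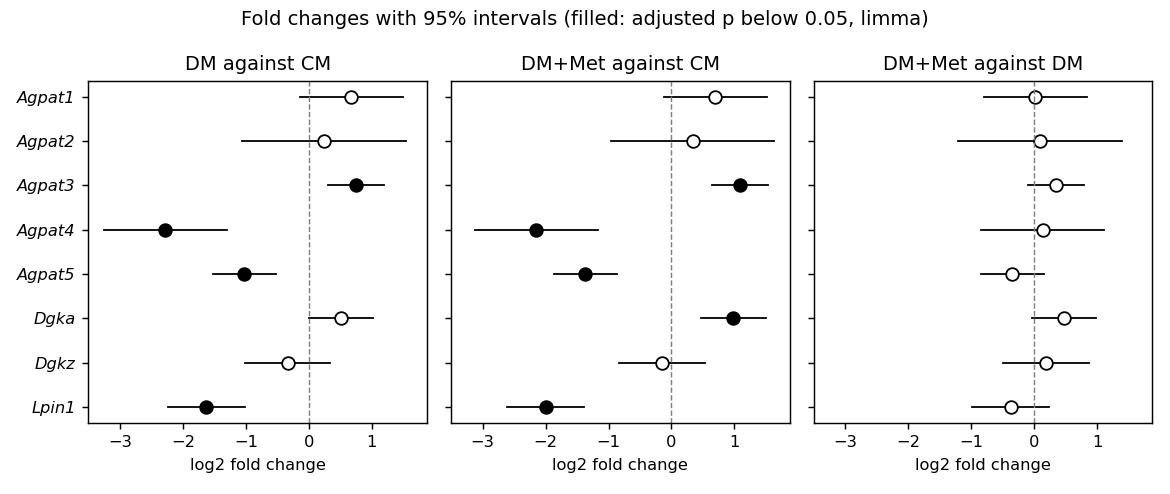
Log2 fold change of each enzyme in the 3 comparisons (points) with its 95% interval (lines), filled where the adjusted p was below 0.05 in limma. Against CM, Agpat4, Agpat5 and Lpin1 are filled below 0 and Agpat3 above 0 in both media, and no point is filled in DM+Met against DM.

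Methionine added to DM did not change any of the 8 transcripts past the threshold. By limma, 0 of 8 had an unadjusted p under 0.05, against 9.69% of all rows, and limma-voom also called 0. The fold changes ran from −0.37 for Lpin1 (95% interval −0.98 to 0.23) to 0.48 for Dgka (95% interval −0.04 to 0.99, adjusted p = 0.549). Agpat4 differed by 0.14 (95% interval −0.84 to 1.11), Agpat5 by −0.35 (−0.85 to 0.15) and Agpat3 by 0.35 (−0.10 to 0.79). The upper bounds for Agpat4 (1.11) and Lpin1 (0.23) were smaller than the distance by which each lay below CM, where Agpat4 had a fold change of −2.28 and Lpin1 of −1.63. Both values rest on the same DM libraries, so this is a description and not a test. Under scaling by library totals, Agpat4 differed by 0.46 and Lpin1 by −0.02 between DM+Met and DM. Agpat3, Agpat5 and Dgka, 3 of the 8, did not overlap between DM and DM+Met, beside 41% of all tested rows. On the TMM scale these 3 lay further from CM in DM+Met, but Dgka differed by only 0.08 without DM library 1. The Rn45s share was lower in DM+Met, and under scaling by library totals the median of all rows moved to 0.34 in DM+Met against DM, where Agpat5 became 0.01. The part of this scaling in the comparison was not tested.

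The order of the levels differed between media. In CM it ran Dgkz, Dgka, Lpin1, Agpat5, Agpat3, Agpat4, Agpat1 and Agpat2, and no neighbors in that order overlapped between their libraries. In DM, Dgka and Dgkz overlapped at the top, Agpat3 came next, Agpat5, Agpat1 and Lpin1 overlapped, and Agpat2 and Agpat4 overlapped at the bottom. DM+Met gave Dgka, Dgkz and Agpat3 apart from each other, then Agpat1, Agpat5 and Lpin1 overlapping, then Agpat2 and Agpat4 overlapping. Agpat4 thus went from the sixth place in CM to the last in both other media, and Lpin1 from the third to the sixth.

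Some of these genes end against a neighbor on the opposite strand, and whether reads were counted by strand is not given in the sources used here. Dgka overlaps Pmel, a pigment cell gene, by 105 bases. Pmel had 1359 and 1136 reads in CM, 1713 and 2878 with DM, and 4010 and 3788 with DM+Met, which is 0.736 to 0.910 reads per Dgka read, and Pmel was called in DM+Met against CM (1.12, adjusted p = 0.00429). Agpat1 overlaps Egfl8 by 101 bases, and Egfl8 had 0.796 to 0.933 reads per Agpat1 read. Without strand, reads of these pairs cannot be told apart, so the level of Dgka and Agpat1 is uncertain. Agpat2 overlaps Egfl7 by 64 bases, but Egfl7 had 72 and 59 reads in CM and 0 to 14 elsewhere and did not follow Agpat2. The 3 neighbors were picked after their values were seen. Agpat3, Agpat4, Agpat5, Dgkz and Lpin1 overlap no other gene that has a row in the files.

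**Figure D4:**
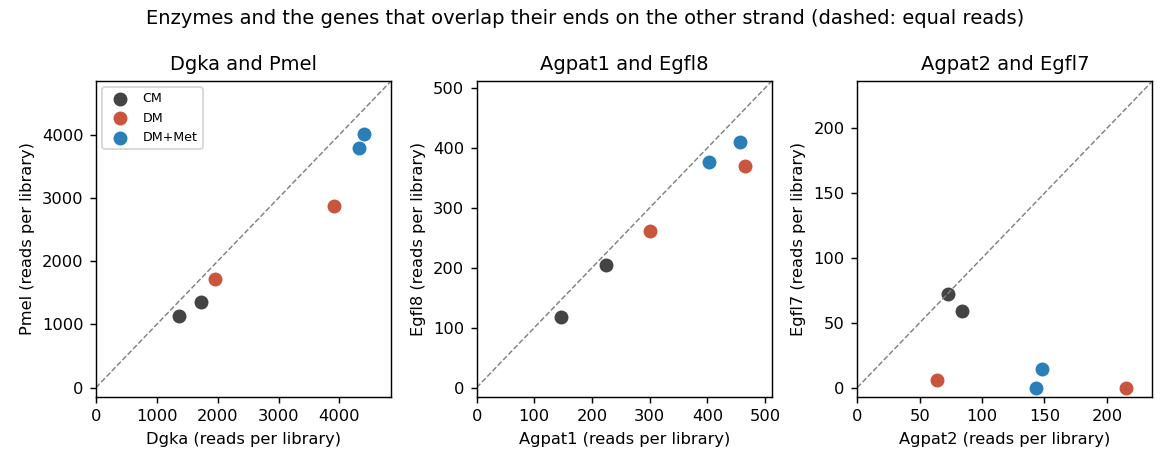
Reads per library of Dgka, Agpat1 and Agpat2 (horizontal) against those of the gene overlapping their end on the other strand (vertical), colored by medium, with a dashed line of equal reads. Pmel and Egfl8 track Dgka and Agpat1 just under the line, and Egfl7 is near 0 outside CM.

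For each called gene, the tested rows with at least 10 CPM on average that ran closest to it over the 6 libraries were listed by Pearson's r, as a description of points that share libraries and media. Agpat4 ran closest to Mrpl12 (r = 0.995), Cks2 (0.989) and Uqcrc2 (0.988). Agpat5 ran closest to Hist1h2ac (0.999), Hist1h2ah (0.998) and Csnk1d (0.998), and Lpin1 to Esco2 (0.997), Tmx4 (0.994) and Lamc1 (0.994). Agpat3 was most like Prkar2a (0.993), Atf5 (0.992) and Fau (0.991), and Dgka most like Zbtb10 (0.990), Tsr1 (0.986) and Kif16b (0.986).

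Around the 8 enzymes, 93 genes in 12 lists cover the steps that feed, consume or respond to phosphatidic acid, and 76 were tested. In DM against CM, 17 passed (22.4%, against 16.9% of all rows), 11 higher and 6 lower. This count includes the low genes Abhd5, Etnk2 and Lpar4, which passed the filter on low values only through media where they were high. Between DM+Met and CM, 11 passed (14.5%, against 15.3%), 6 higher and 5 lower. Between DM+Met and DM, limma called 0 of 76, against 0.0548% of all rows, with 9 at an unadjusted p under 0.05, against 9.69% of all rows. The median log2 fold change of the tested list genes was 0.28 with DM and 0.14 in DM+Met against CM.

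Of the steps before phosphatidic acid, 0 of 3 tested glycerol-3-phosphate acyltransferases, 0 of 2 phospholipase D genes and 0 of 6 other diacylglycerol kinases passed in any of the 3 comparisons. Against CM, 16.9% of all rows passed with DM and 15.3% with DM+Met. Counts of 0 in lists this short therefore do not show that these steps were unchanged. Gpam, the gene of the first group that changed most against CM, was at −1.50 with DM and −1.85 with DM+Met (adjusted p = 0.112 and 0.0641). It was a low gene, at 36 reads or fewer per library. Gpat4, the most abundant of the first group, changed by −0.07 with DM (adjusted p = 0.897), and Dgkd, the leading other kinase, by 0.18 (adjusted p = 0.609). The values of Gpat4 and Gpat3 were deposited under the symbols Agpat6 and Agpat9. Dgkq, the theta kinase, was at 1.39 (adjusted p = 0.0787). Gpat3 had 15 to 40 reads per library and changed by −0.64 (adjusted p = 0.508), and the phospholipase D genes Pld1 and Pld2 had at most 16 and 35 reads. Among 6 other lysophospholipid acyltransferases, Mboat2 fell by 2.21 with DM (SE 0.641, adjusted p = 0.0418) and fell by 3.40 with DM+Met (adjusted p = 0.00689), and Lclat1, which acts on lysocardiolipin, rose by 1.55 with DM (SE 0.465, adjusted p = 0.0474). Mboat2 had 144 and 142 reads in CM, 32 and 30 with DM, and 24 and 0 with DM+Met. The most abundant genes of that list, Lpcat3 and Lpgat1, were at −0.18 and 0.15 in DM (adjusted p = 0.562 and 0.781).

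Of the steps after it, none of the 7 other lipid phosphate phosphatases passed in a comparison, and Plpp1 was at −0.04 in DM (adjusted p = 0.960). A list of 7 is also too short for this count to show that the step was unchanged. Cds2, which turns phosphatidic acid into CDP-diacylglycerol on the way to phosphatidylinositol, fell by 0.90 with DM (SE 0.205, adjusted p = 0.0174). It was the only called gene of the 6 tested in its branch, beside 16.9% of all rows. Before scaling, it had 743 and 703 reads in CM, 471 and 509 with DM, and 644 and 699 with DM+Met. After scaling, Cds2 in DM+Met was at −0.62 against CM (adjusted p = 0.0684) and at 0.27 against DM (adjusted p = 0.737). Cdipt, the phosphatidylinositol synthase, was at 0.50 in DM (adjusted p = 0.125). Dgat1, which makes triacylglycerol from diacylglycerol, fell by 2.21 with DM (SE 0.213, adjusted p = 0.000339) and fell by 2.42 with DM+Met (adjusted p = 0.000150), from 1538 and 1223 reads in CM to 354 to 379 elsewhere. Abhd5, the co-activator of triacylglycerol lipase, rose by 2.17 with DM (SE 0.535, adjusted p = 0.0235), from 8 and 9 reads to 80 and 91. Its CM libraries alone did not meet the filter on low values, so it was tested through the media where it was high and its call is a description. Pnpla2, that lipase, was at −0.46 (adjusted p = 0.253), and Cept1, which makes phosphatidylcholine and phosphatidylethanolamine from diacylglycerol, at −0.03 (adjusted p = 0.941). Pcyt2, of the ethanolamine branch of phospholipid synthesis, fell by 1.39 with DM and 1.12 with DM+Met (adjusted p = 0.0184 and 0.0434), and Etnk1, which phosphorylates ethanolamine, rose by 0.90 with DM (adjusted p = 0.0181). Etnk2 had 25 and 30 reads in CM and 0 in both DM libraries, so it was at least 11.7-fold lower against a floor of 3 reads per library. It passed the filter on low values only through the CM libraries, where it was high, so its call is a description and supports nothing. Ddhd2, a phospholipase that accepts phosphatidic acid, rose in DM+Met against CM by 1.70 (SE 0.349, adjusted p = 0.0103), with 188 and 168 reads in CM, 200 and 498 with DM, and 784 and 936 with DM+Met. Its relative Ddhd1 was at −0.01 in DM (adjusted p = 0.991).

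In the diacylglycerol signaling list of T cells, 5 of 16 passed in DM and 5 of 16 in DM+Met against CM, and all were higher, beside 7.8% and 6.92% of all rows called higher. Rasgrp1 and Rasgrp2, exchange factors of Ras-family GTPases, rose by 0.70 and 1.12 with DM (adjusted p = 0.0288 and 0.0178) and by 0.71 and 1.26 with DM+Met (0.0299 and 0.0102). Prkca, the alpha form of protein kinase C, rose by 1.12 and 1.24 (adjusted p = 0.0068 and 0.00397). Prkd3 passed in DM (1.31, adjusted p = 0.0311) and Prkch in DM+Met (0.80, adjusted p = 0.0312), and the difference between the media was not called for either. Prkcb, the most abundant protein kinase C gene of the list, was at 0.03 in DM (adjusted p = 0.933). The list median was 0.54 with DM and 0.67 with DM+Met, beside 0.07 and 0.06 over all tested rows.

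Among 6 genes associated with T cell anergy, a state in which Dgka is known to be high, Egr3 rose in DM by 1.64 (SE 0.341, adjusted p = 0.0113) and Ndrg1 fell by 1.45 in DM and fell by 2.03 with DM+Met (adjusted p = 0.00109 and 0.000150). Itch, a ubiquitin ligase, was at 0.59 in DM (adjusted p = 0.258). In the extracellular branch, Enpp2, which encodes the lysophosphatidic acid-forming enzyme autotaxin, fell by 2.53 in DM+Met against CM (SE 0.558, adjusted p = 0.0144), from 128 and 260 reads to 25 and 50, with 58 and 77 in DM. The receptor gene Lpar6 rose by 1.22 with DM (SE 0.333, adjusted p = 0.0332). Lpar4, another receptor, had 28 and 25 reads in DM and 0 in the other 4 libraries, at least 6.97-fold higher than CM against a floor of 3 reads per library. It passed the filter on low values only through the DM libraries, where it was high, so its call is a description and supports nothing.

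**Figure D5:**
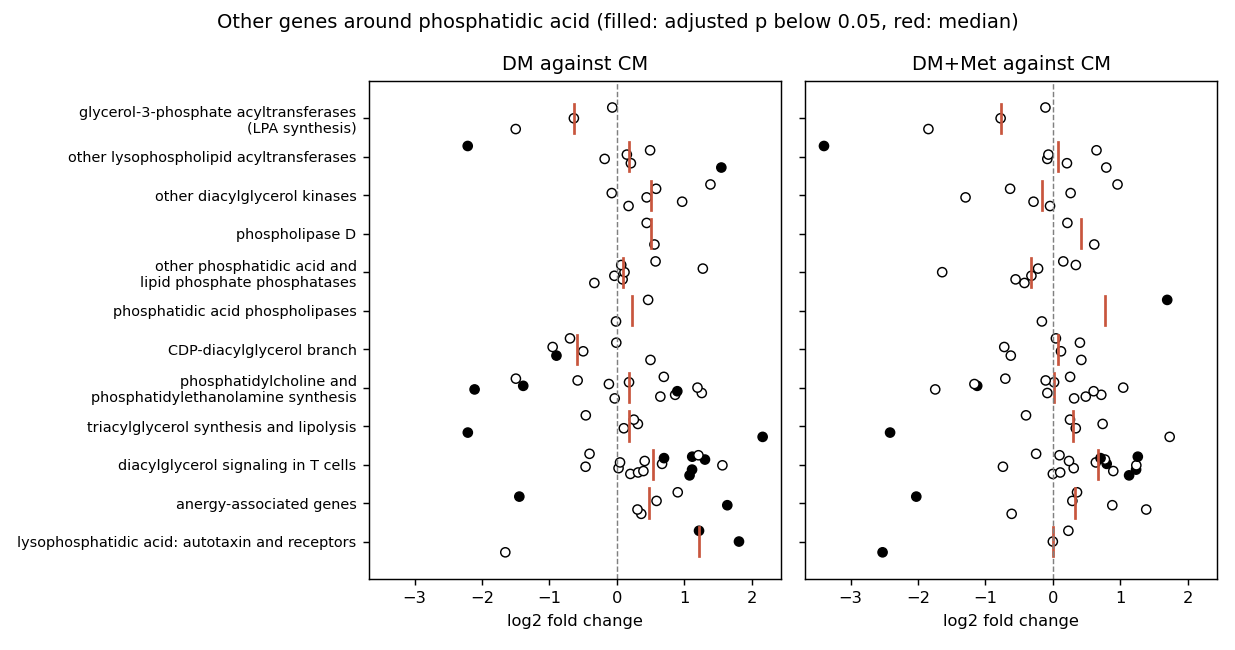
Log2 fold change of 76 other genes around phosphatidic acid in 12 lists, in DM (left) and DM+Met (right) against CM, filled where the adjusted p was below 0.05, with the list median in red. The diacylglycerol signaling list has 5 filled points in each panel, all above 0, and the list of other diacylglycerol kinases has none.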

How the data were processed

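The labels give 3 samples of mouse CD4 T cells with 2 numbered files each, used as 2 libraries per medium. Libraries were made with a 3′-end kit from 500 ng RNA. The authors deposited a log2 value for each gene, of TMM-scaled CPM with 1 added, to 3 decimals. The submitters' processing notes name Bowtie2, bedtools and build mm10, without versions or roles, and the annotation and use of strand are not given in the sources used here. The low values move in equal steps, which returned the reads: at least 99.776% of values up to 300 reads lay within 0.1 of a whole number, and higher counts are rounded.

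Rows were tested where 2 libraries reached 0.946 CPM (10 reads at the median scaled depth) and the total reached 15 reads. limma 3.58.1 in R 4.3.3 was fitted with an intensity trend to the 3 media together (3 residual and 6.87 prior degrees of freedom), two-sided, with Benjamini-Hochberg adjustment over 12770 rows and a threshold of 0.05. The script was tested on simulated data. Fold changes on the log2(CPM + 1) scale understate those of low genes. Named genes were the 8 enzymes, called list genes, the 2 most abundant tested genes of each list, and the 3 searched rows closest to each called enzyme. Gpam was named in addition, for its change against CM. The values of 1 called list gene are not reported here. The members and lists were chosen with earlier results of these data known. Library depth was 8504742 to 12377285 reads, and 3 reads correspond to a log2 value of 0.323 to 0.469. Positions are from mouse GENCODE release M21 and promoters from RefSeq, both on GRCm38. The alternatives were other scalings, filters, pseudocounts, limma settings, limma-voom, a replicate block and leaving out each library.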

Additional observations from a re-analysis of the deposited data

How the results depend on the processing

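Over 17 alternatives, the 24 fold changes of the 8 enzymes gave 408 values, of which 352 kept direction and side of the threshold, 44 lost a call, 1 gained a call and 11 changed sign, and no called fold change changed sign. The enzymes called in DM against CM were 2 without the intensity trend and 2 with only the media compared in the fit, and in DM+Met against CM 3 without the trend. Leaving out a library, which leaves 2 residual degrees of freedom, gave 0 to 2 and 1 to 4. Sign changes came among fold changes that were not called: Agpat5 in DM+Met against DM (0.0079) and Dgkz in DM+Met against CM (0.247) under library totals, and Agpat1 in DM+Met against DM (−0.0166) under totals without Rn45s. On leaving out a library, Agpat2 ranged from −0.65 to 1.13 and Dgkz from −0.90 to 0.22 in DM against CM, and Dgkz from −0.33 to 0.033 in DM+Met against CM. In DM+Met against DM, Agpat1 ranged from −0.39 to 0.42, Agpat2 from −0.80 to 0.99, Agpat4 from −0.36 to 0.63 and Dgkz from −0.37 to 0.75.

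Over all genes, calls in DM against CM were 1329 without the trend, 795 with only the media compared and 541 to 1061 with a library left out. In DM+Met against CM they were 1265 with no filter, 944 without the trend and 268 to 1622 with a library left out. In DM+Met against DM they were 55 under library totals, 27 with at least 10 reads in every library, 21 under limma-voom, 14 with a robust prior, 13 with a pseudocount of 5, 2 with no filter, and 0 without the trend, with only the media compared or with any library left out. Library totals moved the median of all rows to 0.34 in DM+Met against DM and 0.41 in DM+Met against CM, and the higher share of calls in the latter to 76.3%. The cause of these shifts was not tested.

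The labels do not say whether the file numbers pair the libraries. Differences between number 1 and number 2 correlated across genes at −0.03 between CM and DM, 0.005 between CM and DM+Met and −0.03 between DM and DM+Met. Such values show no broad difference shared by number and cannot exclude a small one. With the replicate block, 4, 0 and 5 enzymes and 1947, 7 and 1797 genes were called in DM against CM, DM+Met against DM and DM+Met against CM, and no call of an enzyme changed. With 2 libraries per medium, the median standard error of a fold change was 0.439.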
